A study of Oryza sativa with 14 samples.

Results

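Leaves of the japonica rice cultivar Koshihikari grown on green manure in 2024 were compared with leaves grown on green manure in 2023, in 7 of the 14 RNA-seq libraries of the series. The green manure was hairy vetch, a nitrogen-fixing legume that was grown over winter on the paddy and ploughed in before the rice was transplanted. The 3 leaves of 2024 came from wild-type plants at 38 days after transplanting, on soil sown with vetch at 60 kg of seed per hectare in total. The 4 leaves of 2023 came from wild-type plants at 47 days, on soil sown at 30 kg per hectare. Neither group received chemical fertilizer in the field, and both were sampled as the largest leaf of a vegetative plant between the same morning hours. Members were chosen by treatment and year alone, and the other 7 libraries (3 of 2024 and 4 of 2023) are leaves from paddies given chemical fertilizer. Season, leaf stage, vetch rate and sequencing run all differ between the 2 years, so their parts in any difference below cannot be told apart. The labels call each leaf a biological replicate, but how many plots stood behind the leaves is not stated, so p-values measure the spread between leaves.

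A growing rice leaf builds chloroplasts, exports sucrose and assimilates ammonium, the main form of nitrogen in a flooded paddy, and as it ages it dismantles Rubisco and sends the nitrogen to younger organs. Legume residues release nitrogen gradually as soil microbes break them down. Many leaf transcripts, clock genes above all, also cycle over the day, and clock and phytochrome genes feed the day-length pathway that sets heading.

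Total counts were 13224671 to 18507707 per library in 2024 and 8953151 to 11375515 in 2023. The 100 most abundant genes of a library took 41.1 to 47.0% of its reads in 2024, against 33.2 to 40.5% in 2023. Levels below are CPM, read counts divided by library size, after scaling by the trimmed mean of M-values (TMM), which sets the bulk of genes level between libraries. The TMM factors were 0.767 to 0.895 in 2024 and 1.04 to 1.22 in 2023. When libraries were scaled by their plain totals, the median log2 fold change over all tested genes was -0.52, against -0.046 under TMM. All changes are therefore relative to the bulk of genes, and green manure values below that turn sign under plain totals are given with that value. Of 819 list members tested, 182 turned. Shares of reads on a gene list are of plain library totals, without TMM scaling. The leaf mesophyll markers (the Rubisco small subunit genes OsRBCS2 to OsRBCS5 and Rubisco activase) summed to 86047 to 123478 CPM in 2024 and 29547 to 49775 CPM in 2023. Of 7 meristem and panicle markers, OSH1, OSH15, OsMADS7 and OsMADS8 had no read in any of the 7 libraries, and the list summed to 2.47 to 5.56 CPM in 2024 and 1.33 to 2.88 CPM in 2023. Of 3 root markers RCc3 and OsLsi2 had no read, and the list, which then is almost all OsLsi1, summed to 24.7 to 32.0 CPM in 2024 and 14.6 to 27.4 CPM in 2023. The marker of dividing cells, OsCDKB2;1, lay at 0.604 to 2.57 CPM in 2024 and 0 to 1.61 CPM in 2023.

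The first principal component held 55.9% of the variance and placed all 3 libraries of 2024 on one side and all 4 of 2023 on the other. The second, with 15.8%, set libraries 1 and 2 of 2023 apart from libraries 3 and 4 of 2023. Leaves of a year were not equally far apart. A chi-square per degree of freedom between the read counts of 2 libraries is larger for less alike pairs. It was 2.80 for libraries 3 and 4 of 2023, against 18.3 to 29.4 for other pairs of 2023. For libraries 2 and 3 of 2024 it was 7.60, against 21.8 and 32.95 for pairs with library 1 of 2024. Of 18935 genes tested with the quasi-likelihood test of edgeR, 6038 (31.9%) differed between the years at a Benjamini-Hochberg adjusted p under 0.05, which is what "called", "rose" and "fell" mean below. Of these, 3008 (15.9%) were higher and 3030 (16%) lower in 2024. A change of at least 1 on the log2 scale was called for 944 genes (4.99%) upward and 1057 (5.58%) downward. The libraries of the 2 years did not overlap for 7478 genes (39.5%). With plain totals 10166 genes were called, 1039 higher and 9127 lower, so that split depends on the scaling. Leaving out library 2 of 2024 gave 3910 called genes, and leaving out library 3 of 2024 gave 3854.

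**Figure D1:**
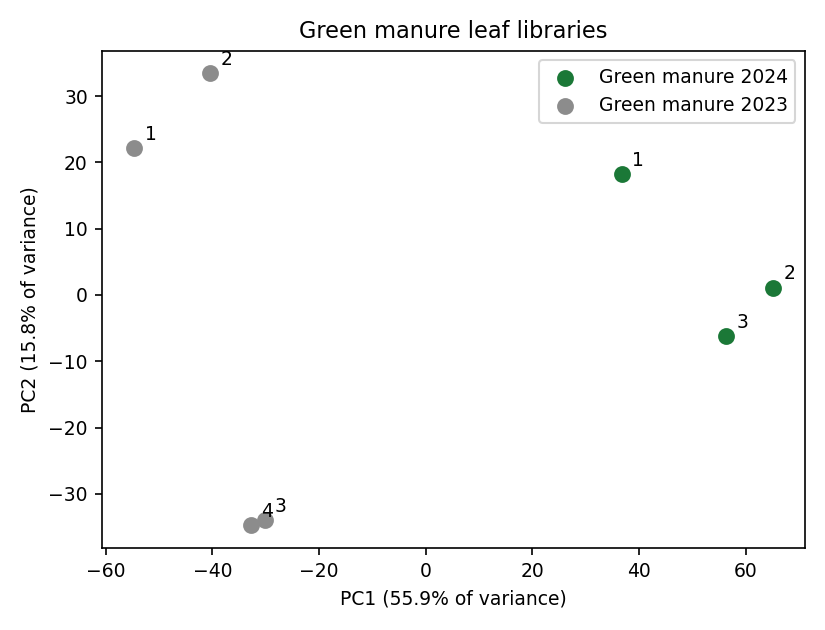
Principal components of log2 CPM over the tested genes, with 1 point per green manure library, numbered by replicate (green, 2024; grey, 2023). PC1 carries 55.9% of the variance and separates the years, and PC2 carries 15.8%.

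Most transcripts tested for carbon fixation and chlorophyll synthesis were higher in 2024. Of 16 tested members of a list of Rubisco and chlorophyll synthesis genes, 11 were higher and 0 lower, with a median log2 fold change of 0.87; with plain totals 7 rose and 1 fell. Reads of the list made up 8.28 to 10.3% of each library of 2024, against 4.12 to 5.70% in 2023. OsRCA, the Rubisco activase that removes inhibitory sugar phosphates from the enzyme, had 48643, 50989 and 46828 CPM in 2024, against 20862, 26919, 18079 and 19215 CPM in 2023 (log2 fold change 1.20 ± 0.21 SE, adjusted p = 0.0010). The lowest leaf of 2024 was well above the highest of 2023. OsRBCS2, a Rubisco small subunit gene, had 20780.2, 39462 and 33482 CPM in 2024, against 3598, 11384, 11551 and 11280.4 CPM in 2023 (log2 fold change 1.72 ± 0.39 SE, adjusted p = 0.0074). OsRBCS3 and OsRBCS4 rose by 1.38 ± 0.31 and 1.36 ± 0.27 on the log2 scale, while OsRBCS5 stood at 0.81 ± 0.52 with overlapping libraries and was not called. The small subunit genes are near-identical copies, and the split of reads between them is uncertain. In whole leaves, more cells of a type and more RNA per cell cannot be told apart, and the mesophyll markers above are themselves members of this list.

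In chlorophyll synthesis, enzymes at several steps rose. OsHEMA1, the glutamyl-tRNA reductase at its committed entry, had 197, 314 and 259 CPM in 2024, against 93.2, 108, 112 and 126 CPM in 2023 (log2 fold change 1.22 ± 0.16 SE, adjusted p = 0.00013). OsCHLH, the porphyrin-binding subunit of magnesium chelatase, had 3285, 6043 and 4211 CPM in 2024, against 1981, 2218, 2139.7 and 2207 CPM in 2023 (log2 fold change 1.08 ± 0.20 SE, adjusted p = 0.0014). The other chelatase subunits OsCHLD and OsCHLI rose by 0.71 ± 0.14 and 0.84 ± 0.20, and OsCAO1, which makes chlorophyll b, by 0.76 ± 0.16. OsGLK1, a transcription factor that drives chloroplast genes, averaged 657 ± 109 CPM in 2024 and 353 ± 47.1 CPM in 2023 (SD, n = 3 and 4; log2 fold change 0.90 ± 0.15 SE, adjusted p = 0.00094), and its paralog OsGLK2 rose by 0.58 ± 0.13. The members not called included OsPORA (1.15 ± 0.37), OsPORB (0.12 ± 0.20, or -0.38 with plain totals), both protochlorophyllide reductases, and the chlorophyll synthase OsYGL1 (-0.33 ± 0.13).

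Light-harvesting proteins, which bind the chlorophyll, had 9 of 19 tested members higher and 0 lower, with a median of 0.68; with plain totals 7 rose and 2 fell. The one-helix protein OHP1, which helps assemble photosystem II, had 167, 181 and 182 CPM in 2024, against 48.9, 82.3, 71.7 and 65.9 CPM in 2023 (log2 fold change 1.40 ± 0.15 SE, adjusted p = 4e-05). OsLIL3, a light-harvesting-like protein that anchors late chlorophyll synthesis, had 184, 252 and 239.5 CPM in 2024, against 65.6, 109, 101.02 and 88.0 CPM in 2023 (log2 fold change 1.31 ± 0.17 SE, adjusted p = 0.00016). PSB33 and the chlorophyll-binding domain gene Os02g0610700 rose by 1.25 ± 0.13 and 1.08 ± 0.14, and among major antenna genes LHCB2.1 by 0.96 ± 0.23 and LHCB3 by 0.89 ± 0.22. CAB1R averaged 16899 ± 1860.1 CPM in 2024 and 15776 ± 2791 CPM in 2023 with a log2 fold change of 0.10 ± 0.20 (-0.37 with plain totals), and CAB2R, LHCA1, LHCA2, LHCA3 and CP29 were not called either. The share of all reads on the list overlapped between the years, at 7.21 to 9.89% in 2024 and 6.91 to 10.4% in 2023. Among 27 photosystem subunits, 8 rose and 2 fell, a called share not far above the 31.9% over all genes. However, 4 rose and 7 fell with plain totals, and 13 rose and 4 fell without libraries 1 and 2 of 2023. When 1 library was left out, 3 rose without library 2 of 2024, 4 without library 3 of 2024 or library 3 or 4 of 2023, and 14 without library 2 of 2023, with 2 falls each time. PSB28, a photosystem II assembly factor, had 313, 446 and 415 CPM in 2024, against 92.4, 158, 139.9 and 138 CPM in 2023 (log2 fold change 1.57 ± 0.18 SE, adjusted p = 7.3e-05), and PSBO of the oxygen-evolving complex rose by 0.95 ± 0.23. Os01g0617900, described as related to the oxygen-evolving complex, fell (log2 fold change -0.70 ± 0.12). The largest rise of the list belonged to Os04g0473150, described as similar to the D1 protein of photosystem II, with 17.5, 27.8 and 18.1 CPM in 2024, against 1.30, 2.88, 2.21 and 3.42 CPM in 2023 (log2 fold change 3.12 ± 0.27 SE, adjusted p = 1.6e-05). D1 is encoded in the chloroplast genome, and reads of that copy cannot be told apart here from those of the nuclear locus.

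Genes for sucrose and starch were mostly higher, while SWEET genes went both ways. Of 7 tested genes for sucrose and starch, 6 rose and 0 fell, with a median of 0.96. With plain totals 4 rose and 1 fell. The starch synthase OsGBSSI stood at -0.97 and was not called, and it was the 1 that fell with plain totals, at -1.44. OsSPS1, a sucrose phosphate synthase of the leaf, had 534, 607 and 559 CPM in 2024, against 241, 249, 292 and 276 CPM in 2023 (log2 fold change 1.101 ± 0.12 SE, adjusted p = 5.4e-05). OsSUT1, the transporter that loads sucrose into the phloem, had 103, 118 and 117 CPM in 2024, against 47.9, 63.0, 54.7 and 61.3 CPM in 2023 (log2 fold change 1.00 ± 0.12 SE, adjusted p = 8.4e-05). The 2 years were separate for both genes. The tonoplast sucrose transporter OsSUT2 rose by 0.77 ± 0.13, the leaf starch synthase OsGBSSII by 0.96 ± 0.16 and OsFBP, the cytosolic fructose bisphosphatase, by 1.15 ± 0.20. Of 10 SWEET genes, which let sugars cross membranes in both directions, 3 rose and 2 fell, and both counts were 2 with plain totals; without library 3 of 2024 or library 1 of 2023, 2 rose and 1 fell. SWEET1A rose by 1.12 ± 0.17 and SWEET3A fell (log2 fold change -0.96 ± 0.18).

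Nitrogen genes changed in both directions. Of 16 tested members 3 rose and 6 fell, and 1 rose and 9 fell with plain totals. The genes that fell act in asparagine and ureide metabolism, nitrite reduction and transport. ASNASE2, an asparaginase that frees ammonium from asparagine, had 96.0, 75.7 and 105 CPM in 2024, against 383, 401, 538 and 471 CPM in 2023 (log2 fold change -2.28 ± 0.17 SE, adjusted p = 2.4e-06). OsNiR, the plastid nitrite reductase, had 12.03, 8.30 and 10.9 CPM in 2024, against 34.9, 48.3, 39.9 and 42.4 CPM in 2023 (log2 fold change -1.98 ± 0.16 SE, adjusted p = 4.5e-06). ALN, the allantoinase of ureide breakdown, had 18.0, 20.1 and 26.8 CPM in 2024, against 59.4, 69.9, 93.7 and 94.9 CPM in 2023 (log2 fold change -1.88 ± 0.20 SE, adjusted p = 6e-05). In all 3 genes every leaf of 2024 lay below every leaf of 2023. The asparagine synthetase OsASN2 fell (log2 fold change -0.63 ± 0.12). The ammonium transporter OsAMT2;1 and the nitrate transporter OsNRT2.3, both under 11 CPM, fell (log2 fold changes -0.97 ± 0.29 and -1.19 ± 0.38), and each lost its call in 4 of 7 fits that left out a library, with adjusted p up to 0.094 and 0.12.

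Of the 3 genes that rose, 2 encode glutamine synthetases and 1 an ammonium transporter, while the ammonium transporter OsAMT2;1 fell. OsGS1;2, a cytosolic glutamine synthetase, had 124, 97.9 and 99.5 CPM in 2024, against 49.0, 65.7, 42.7 and 45.7 CPM in 2023 (log2 fold change 1.08 ± 0.15 SE, adjusted p = 0.00022). OsAMT1;1, an ammonium transporter, had 114, 124 and 119.6 CPM in 2024, against 70.3, 91.2, 67.6 and 59.5 CPM in 2023 (log2 fold change 0.72 ± 0.14 SE, adjusted p = 0.0018). OsGS2, the chloroplast glutamine synthetase that recaptures photorespiratory ammonium, averaged 3813 ± 508 CPM in 2024 and 2303 ± 398 CPM in 2023 (SD, n = 3 and 4; log2 fold change 0.73 ± 0.18 SE, adjusted p = 0.0088), and its adjusted p was 0.0505 without library 2 of 2024. The nitrate reductase OsNR1 (-0.12 ± 0.13), the cytosolic synthetase OsGS1;1 (-0.09 ± 0.13) and OsFd-GOGAT (0.29 ± 0.16, or -0.20 with plain totals) were not called. A second nitrate reductase, OsNR2, had a log2 fold change of 0.85 (0.39 with plain totals) and was not called either. Nitrate reductase acts in the step before nitrite reductase.

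Of 12 phosphate genes 6 rose and 2 fell, but 2 rose and 4 fell with plain totals. OsSQD2, which replaces phospholipids with sulfolipids when phosphate is short, had 194, 303 and 226 CPM in 2024, against 98.5, 121, 95.5 and 107 CPM in 2023 (log2 fold change 1.19 ± 0.15 SE, adjusted p = 0.00012). The phosphate sensors OsSPX2 and OsSPX1 rose by 0.79 ± 0.13 and 0.84 ± 0.17, and the phosphodiesterase OsGDPD2 by 1.47 ± 0.28. The central regulator OsPHR2 rose by 0.50 ± 0.11 and the exporter OsPHO1;2 by 0.68 ± 0.13. OsPT1, a phosphate transporter, had 7.49, 4.84 and 6.99 CPM in 2024, against 23.8, 16.4, 18.5 and 19.5 CPM in 2023 (log2 fold change -1.59 ± 0.18 SE, adjusted p = 6.5e-05), and its relative OsPT4 fell (log2 fold change -0.60 ± 0.12). The share of reads on the list overlapped between the years, at 0.0435 to 0.0476% in 2024 and 0.0405 to 0.0515% in 2023.

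Ferritins, the plastid proteins that store iron, rose. OsFER1 had 1027, 1317 and 1372 CPM in 2024, against 379, 195, 299 and 337 CPM in 2023 (log2 fold change 2.03 ± 0.21 SE, adjusted p = 3.3e-05), and OsFER2 had 1190.2, 1353 and 1464 CPM in 2024, against 464, 210.0, 308 and 361 CPM in 2023 (log2 fold change 1.99 ± 0.22 SE, adjusted p = 7.5e-05). Library 2 of 2023 was lowest for both, and no library overlapped between the years. The pair are near-identical, so reads between them are uncertain. OsIRO3, a bHLH repressor in the iron deficiency response, rose by 1.27 ± 0.15. These 3 were the called genes of 9 tested for iron and zinc, a share near the 31.9% called over all genes. The other 6 of the 9 iron and zinc genes were not called (5 fell with plain totals, and 2 without library 3 of 2023), among them OsNAS3 (0.38 ± 0.22, or -0.086 with plain totals) and OsIRT1 (-1.06 ± 0.42). OsLsi6, the transporter that unloads silicon from the xylem of leaves, had 235, 309 and 331 CPM in 2024, against 77.8, 96.9, 118 and 112 CPM in 2023 (log2 fold change 1.53 ± 0.16 SE, adjusted p = 3.5e-05). It was the 1 called gene of 5 for potassium and silicon, a share under the 31.9% called over all genes. With plain totals 2 others fell, without library 1 of 2023 1 fell, and without library 2 of 2023 there were 2 rises. Of 9 genes found by the names of sulfate transporters and APS reductases 2 rose, a share under the 31.9% called over all genes. They were SULTR4;1 at 0.43 ± 0.10 and APRL1, which is only APS reductase-like by its symbol, at 0.91 ± 0.28. With plain totals none of the 9 rose and 1 fell, while 4 rose without library 2 of 2023, alone or with library 1, and 1 without library 3 of 2024 or library 3 of 2023; SULTR4;1 turned to -0.045, and the call on APRL1 was lost without any 1 of 4 libraries, with adjusted p up to 0.11. In the copper list neither gene was called (1 fell without library 1 of 2024), and the primary transcript of miR408 stood at -1.02 ± 0.43 and OsCOPT1 at 0.19 ± 0.14, which turned to -0.28 with plain totals.

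**Figure D2:**
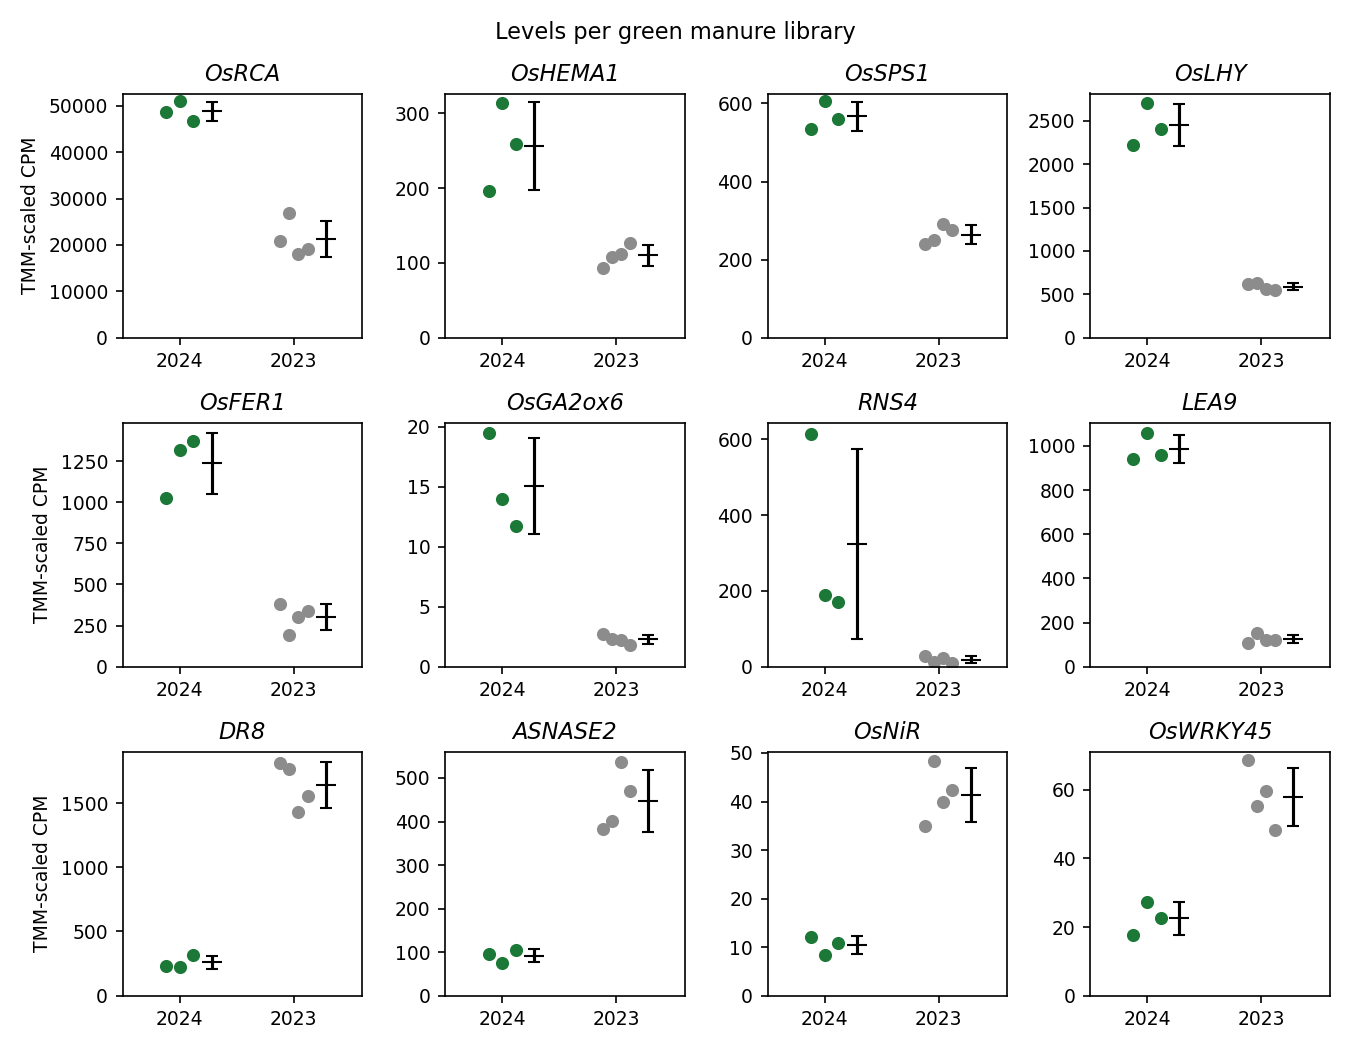
TMM-scaled CPM of 12 genes in each green manure library (green points, 2024; grey points, 2023; bars, mean ± SD of 3 and 4 libraries; axes start at 0). In each panel the 2 years are separate, as for OsLHY, where the leaves of 2024 lie at 2224, 2706 and 2409 CPM and those of 2023 at 617, 625, 562 and 553 CPM. The 12 genes were picked by hand from the named genes, and the rule for the largest changes required no overlap. Over all tested genes the years did not overlap for 39.5%.

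Clock genes shifted in both directions. Of 13 tested members 5 rose, 3 fell and 5 were not called; 2 rose and 3 fell with plain totals, and 4 rose and 1 fell without library 2 of 2024. OsLHY, the MYB factor that peaks at dawn, had 2224, 2706 and 2409 CPM in 2024, against 617, 625, 562 and 553 CPM in 2023 (log2 fold change 2.05 ± 0.14 SE, adjusted p = 1.7e-06). The pseudo-response regulators OsPRR37 and OsPRR95 rose by 0.58 ± 0.12 and 0.62 ± 0.13, and the blue-light F-box protein OsZTL by 0.85 ± 0.13. OsPRR73 rose by 0.44 ± 0.14, but stood at -0.047 with plain totals and lost its call in 3 of the 7 fits that left out a library. OsFKF1, a relative of OsZTL, had 7.55, 7.31 and 14.1 CPM in 2024, against 24.9, 18.7, 21.9 and 24.3 CPM in 2023 (log2 fold change -1.21 ± 0.22 SE, adjusted p = 0.0018), and OsPRR1, the rice counterpart of TOC1, fell (log2 fold change -0.50 ± 0.13). OsELF3-2 of the evening complex fell (log2 fold change -0.92 ± 0.26). OsGI (0.23 ± 0.15), OsELF3-1 (0.16 ± 0.11) and OsPRR59 (0.21 ± 0.10) were not called, and with plain totals they turned to -0.25, -0.32 and -0.27. The calls on OsPRR1 and OsELF3-2 were lost without library 2 of 2024, and that on OsPRR1 also without library 3 of 2024, with adjusted p up to 0.069 and 0.076.

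Of 18 flowering genes 5 rose and 3 fell, and 2 rose and 8 fell with plain totals. The 8 called became 4 without library 2 of 2024, 3 without library 3 of 2024 and 5 without library 1, 3 or 4 of 2023. SE5, the haem oxygenase that makes the phytochrome chromophore, had 464, 509 and 465 CPM in 2024, against 213, 273, 191 and 178 CPM in 2023 (log2 fold change 1.17 ± 0.15 SE, adjusted p = 0.00013). OsMADS50, a flowering activator, had 103, 102 and 98.7 CPM in 2024, against 59.0, 64.5, 55.3 and 57.7 CPM in 2023 (log2 fold change 0.77 ± 0.10 SE, adjusted p = 0.00016). The phytochromes PHYC and PHYA fell (log2 fold changes -0.49 ± 0.11 and -0.59 ± 0.15). PHYB and OsMADS56 rose by 0.41 ± 0.14 and 0.32 ± 0.11, but both turned with plain totals, to -0.076 and -0.15. Ghd7, a repressor of heading in long days, was low, at 2.42, 3.56 and 2.17 CPM in 2024, against 1.38, 1.34, 1.78 and 0.665 CPM in 2023 (log2 fold change 1.04 ± 0.35 SE, adjusted p = 0.039). OsMADS14, a meristem identity gene that comes on with flowering, had 0.846, 0.0988 and 1.26 CPM in 2024, against 1.09, 1.82, 4.33 and 4.94 CPM in 2023 (log2 fold change -1.94 ± 0.67 SE, adjusted p = 0.049). The call on PHYA was lost without library 3 of 2024 (adjusted p = 0.058). Calls on PHYB, OsMADS56, Ghd7 and OsMADS14 were each lost in 5 or 6 of the 7 fits that left out a library. The florigen Hd3a (0.04 ± 0.42, or -0.40 with plain totals) was not called, at 2.097 ± 1.49 CPM in 2024 and 2.103 ± 0.663 CPM in 2023 (SD, n = 3 and 4). Of 8 SPL factors and phase microRNAs 1 rose and 2 fell (0 and 4 with plain totals), a called share not far above the 31.9% over all genes. Without library 2 of 2024 or library 1, 3 or 4 of 2023, 0 rose and 1 fell. None was called without library 3 of 2024. The primary transcript of miR156d, the juvenile-phase microRNA, fell (log2 fold change -1.01 ± 0.26). SPL12 fell (log2 fold change -0.47 ± 0.17), and SPL15 rose by 0.35 ± 0.11 but turned to -0.13 with plain totals. The call on miR156d was lost without library 3 of 2024, at an adjusted p of 0.063, and those on the SPL genes in 5 or 6 of the 7 fits.

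Of 16 tested gibberellin genes 4 rose and 1 fell, a share near the 31.9% called over all genes, and 2 rose and 3 fell with plain totals. OsGA2ox6, which inactivates gibberellin, had 19.5, 13.9 and 11.7 CPM in 2024, against 2.75, 2.3001, 2.21 and 1.80 CPM in 2023 (log2 fold change 2.72 ± 0.22 SE, adjusted p = 5.1e-06). OsKAO, an oxidase of early gibberellin synthesis, had 8.70, 7.01 and 10.1 CPM in 2024, against 2.68, 4.79, 2.21 and 2.37 CPM in 2023 (log2 fold change 1.52 ± 0.26 SE, adjusted p = 0.00095). SLR1, the DELLA protein that holds growth back until gibberellin removes it, had 151, 166 and 159 CPM in 2024, against 91.4, 109, 97.0 and 94.6 CPM in 2023 (log2 fold change 0.69 ± 0.11 SE, adjusted p = 0.00051). The receptor GID1 rose by 0.41 ± 0.11, and turned to -0.054 with plain totals. EUI1, a second inactivating enzyme, fell (log2 fold change -0.77 ± 0.27), a call lost in 6 of the 7 fits that left out a library. OsGA20ox2, the semidwarf gene, had a log2 fold change of 0.16 ± 0.55 (-0.29 with plain totals), and OsGA20ox1 of -0.04 ± 0.20, with overlapping libraries. Cytokinin genes that passed were all higher. Of 7 tested 5 rose and 0 fell, all of them type-A response regulators, which cytokinin induces and which damp its signal, and 3 rose with plain totals. OsRR2 had 149.9, 169 and 134 CPM in 2024, against 79.7, 82.8, 66.2 and 68.9 CPM in 2023 (log2 fold change 1.02 ± 0.12 SE, adjusted p = 8.4e-05), OsRR4 had 96.3, 141 and 125 CPM in 2024, against 46.5, 61.3, 66.0 and 58.1 CPM in 2023 (log2 fold change 1.06 ± 0.15 SE, adjusted p = 0.00023), and OsRR6 and OsRR1 rose by 1.37 ± 0.27 and 0.90 ± 0.20.

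Genes of immune recognition were called lower more often than higher. Of 46 wall-associated kinases, receptors that span the wall and membrane, 4 rose and 23 fell, with a median of -0.73; with plain totals 1 rose and 32 fell, and without library 3 of 2024 2 rose and 14 fell. WAK82 had 1.99, 1.78 and 2.52 CPM in 2024, against 16.6, 13.0, 11.6 and 14.2 CPM in 2023 (log2 fold change -2.71 ± 0.21 SE, adjusted p = 3.3e-06), and WAK60 had 0.604, 0.494 and 0.978 CPM in 2024, against 9.57, 3.26, 6.20 and 5.70 CPM in 2023 (log2 fold change -3.13 ± 0.40 SE, adjusted p = 0.00013). WAK45 and WAK85 fell (log2 fold changes -1.75 ± 0.24 and -2.29 ± 0.32). Of 111 NB-ARC genes, the intracellular immune receptors, 5 rose and 31 fell, with a median of -0.36. The share called was near the 31.9% over all genes, where 15.9% rose and 16% fell. With plain totals 0 of the NB-ARC genes rose and 60 fell. Without library 2 of 2024 2 rose and 21 fell, and without library 3 of 2024 4 rose and 14 fell. Os11g0226933 had 5.86, 4.25 and 3.84 CPM in 2024, against 22.9, 18.1, 15.9 and 14.2 CPM in 2023 (log2 fold change -1.92 ± 0.21 SE, adjusted p = 4.1e-05), and Os11g0227800 and Os11g0684700 fell (log2 fold changes -2.05 ± 0.29 and -1.18 ± 0.17). Os12g0270300 went the other way at 0.73 ± 0.10. Both families hold close copies between which unique reads can be split.

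In salicylate signalling 3 of 8 tested genes fell and 0 rose (5 fell with plain totals), a called share not far above the 31.9% over all genes. OsWRKY45, an activator of salicylate-dependent resistance, had 17.7, 27.4 and 22.6 CPM in 2024, against 68.6, 55.2, 59.5 and 48.2 CPM in 2023 (log2 fold change -1.37 ± 0.16 SE, adjusted p = 7.6e-05). OsWRKY62, a repressor acting in the same pathway, had 0.967, 1.38 and 1.33 CPM in 2024, against 5.94, 4.70, 3.99 and 3.04 CPM in 2023 (log2 fold change -1.87 ± 0.31 SE, adjusted p = 0.00068), and OsNPR1, the salicylate co-receptor, fell (log2 fold change -0.97 ± 0.23). The pathogenesis-related genes PBZ1 (0.11 ± 0.12, or -0.36 with plain totals) and OsPR5 (-0.37 ± 0.47) were not called. Of 48 WRKY factors 5 rose and 10 fell, a share near that over all genes; 1 rose and 28 fell with plain totals, and 2 rose and 6 fell without library 2 of 2024. WRKY68 rose by 0.83 ± 0.13 and WRKY69 fell (log2 fold change -1.37 ± 0.26). In the jasmonate branch 1 of 4 synthesis genes rose, a share under the 31.9% called over all genes. It was OsAOC at 0.39 ± 0.11, which turned to -0.087 with plain totals and was not called without library 3 of 2024 (adjusted p = 0.079). Without library 2 of 2024 2 rose. Of 6 genes found by the name JAZ, which are 5 JAZ repressors of jasmonate signalling and the JAZ-interacting factor BHLH9, 3 rose, TIFY6B by 0.64 ± 0.11, TIFY11B by 1.35 ± 0.33 and TIFY10B by 0.50 ± 0.15; with plain totals 1 rose and 1 fell. The call on TIFY11B was lost without library 1 of 2024, and that on TIFY10B without library 1 or library 3 of 2024, with adjusted p up to 0.055 and 0.10. Of 3 phytoalexin genes 1 fell, OsCPS2, which starts diterpene phytoalexin synthesis (log2 fold change -0.61 ± 0.12). That share is near the 31.9% called over all genes. All 3 fell with plain totals, and 2 without library 2 of 2023.

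**Figure D3:**
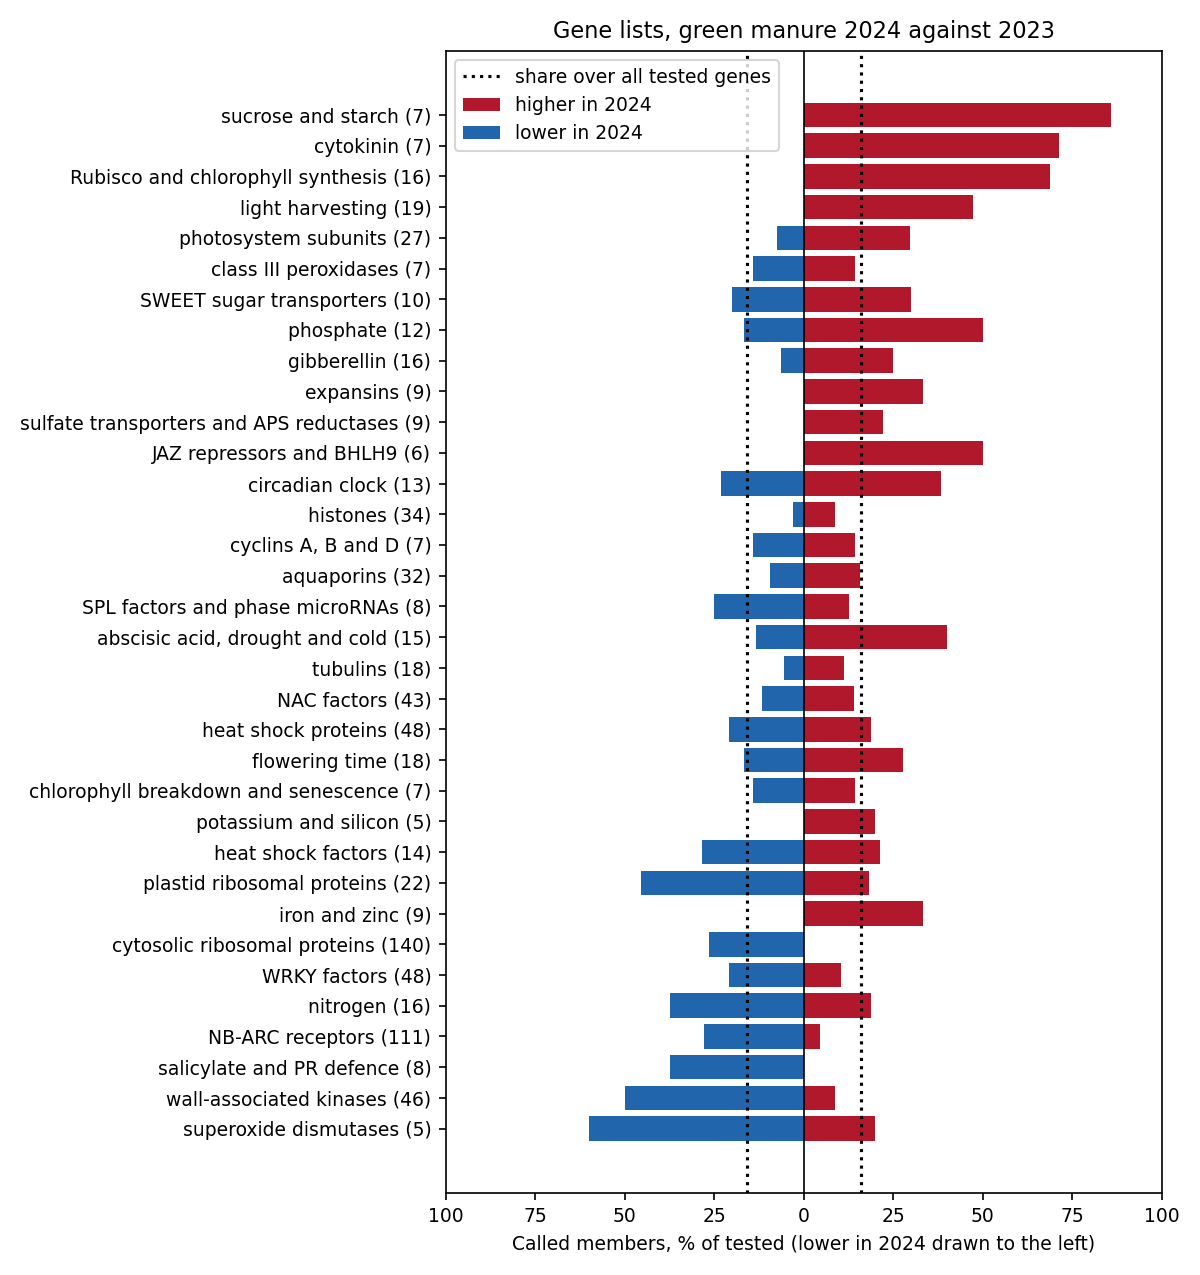
Share of tested members of each gene list (number tested in brackets, lists of 5 or more) called higher in 2024 (red, right) or lower in 2024 (blue, left), ordered by median log2 fold change. Dotted lines mark the shares over all tested genes, 15.9% higher and 16% lower. Of Rubisco and chlorophyll synthesis genes 11 of 16 rose, and 23 of 46 wall-associated kinases fell. The aquaporin list also holds similarly named genes such as PIP5K1.

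Ribosomal protein transcripts that passed the test were lower in the cytosolic set and went both ways in the plastid set. Of 140 genes for cytosolic ribosomal proteins 0 rose and 37 fell, with a median of -0.27. The called share was under the 31.9% over all genes but above the 16% that fell. With plain totals 120 fell; without libraries 1 and 2 of 2023 together, 16 fell and the median was -0.11. Without library 2 of 2024 1 rose and 13 fell, and without library 3 of 2024 0 rose and 16 fell. Their share of reads, taken on plain totals, was 0.300 to 0.436% in 2024 and 0.563 to 0.687% in 2023. On that scale the median log2 fold change was -0.73. Os11g0425800, described as 60S protein L13a, had 12.8, 12.1 and 12.4 CPM in 2024, against 23.2, 23.3, 24.4 and 25.7 CPM in 2023 (log2 fold change -0.96 ± 0.12 SE, adjusted p = 9.6e-05), and RPS4 and the S19-like 40S gene Os01g0723200 fell (log2 fold changes -0.76 ± 0.14 and -0.70 ± 0.11). Of 22 plastid ribosomal proteins, 4 were higher and 10 lower (1 and 14 with plain totals; 3 and 5 without library 2 of 2024, 3 and 6 without library 3 of 2024). CRP7 had 22.3, 16.5 and 17.5 CPM in 2024, against 36.0, 47.0, 44.1 and 37.1 CPM in 2023 (log2 fold change -1.12 ± 0.14 SE, adjusted p = 0.00012), while Os02g0189000, Os05g0101400 and Os01g0924000, described as plastid S21, L28 and L27, rose by 0.88 ± 0.17, 0.75 ± 0.15 and 0.70 ± 0.14.

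Of 15 abscisic acid, drought and cold genes 6 rose and 2 fell, and 3 rose and 6 fell with plain totals. The share of all reads on the list, taken on plain totals, was 0.164 to 0.208% in 2024 and 0.245 to 0.390% in 2023. The median log2 fold change of the list was -0.49 with plain totals but 0.0074 under TMM. SNAC1, a NAC factor of stomatal closure, had 90.9, 76.1 and 78.5 CPM in 2024, against 31.2, 36.4, 24.1 and 25.7 CPM in 2023 (log2 fold change 1.48 ± 0.14 SE, adjusted p = 1.8e-05). The proline synthesis enzyme OsP5CS1 had 94.7, 76.5 and 67.1 CPM in 2024, against 33.9, 38.8, 47.2 and 46.5 CPM in 2023 (log2 fold change 0.93 ± 0.15 SE, adjusted p = 0.00051). PRODH, which degrades proline, had 35.3, 26.6 and 36.2 CPM in 2024, against 55.2, 56.2, 57.0 and 53.5 CPM in 2023 (log2 fold change -0.76 ± 0.12 SE, adjusted p = 0.00064). The dehydrin LIP9 rose by 0.74 ± 0.13. Of 43 NAC factors 6 rose and 5 fell, both under the shares of 15.9% and 16% over all genes, and 2 rose and 19 fell with plain totals. NAC44 rose by 1.61 ± 0.19, and NAC22 and NAC95 fell (log2 fold changes -2.25 ± 0.24 and -1.54 ± 0.24). Of 48 heat shock proteins 9 rose and 10 fell, both close to the shares over all genes. With plain totals 2 rose and 24 fell. The counts were 5 and 7 without library 3 of 2024, and 4 and 8 without library 4 of 2023. HSP71.1, a cytosolic HSP70, had 861, 619 and 818 CPM in 2024, against 405, 379, 381 and 347 CPM in 2023 (log2 fold change 1.02 ± 0.14 SE, adjusted p = 0.00022), and Os03g0821100, a cognate HSP70, rose by 0.88 ± 0.11. HSP17.9A, a small heat shock protein, had 3.26, 1.28 and 2.87 CPM in 2024, against 8.05, 11.98, 7.64 and 9.78 CPM in 2023 (log2 fold change -1.87 ± 0.28 SE, adjusted p = 0.00036), and Os08g0487800 fell (log2 fold change -1.28 ± 0.16). Of 14 heat shock factors 3 rose and 4 fell (1 and 10 with plain totals, 2 and 2 without libraries 1 and 2 of 2023; 1 and 2 without library 2 of 2024, 1 and 3 without library 3 of 2024). HSFB2A stood at 1.27 ± 0.26 and HSFA2D at 0.63 ± 0.17, against HSFB2C at -0.78 ± 0.16 and HSFB2B at -1.27 ± 0.26. The call on HSFA2D was lost without library 2 or library 3 of 2024, with adjusted p up to 0.079. Of 5 superoxide dismutases, 3 that use iron or manganese fell. The iron enzyme SODB had 10.3, 8.002 and 8.87 CPM in 2024, against 21.7, 21.6, 20.9 and 19.3 CPM in 2023 (log2 fold change -1.20 ± 0.14 SE, adjusted p = 6e-05), and SODA1 and FSD1.1 fell (log2 fold changes -1.031 ± 0.13 and -1.02 ± 0.17). The copper-zinc enzyme SOD2 rose by 0.71 ± 0.19, a call lost without library 2 of 2024 (adjusted p = 0.084) and with plain totals.

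The 3 cellulose synthases of the secondary wall all rose. OsCESA4 had 9.07, 30.2 and 28.1 CPM in 2024, against 1.23, 1.53, 6.79 and 4.27 CPM in 2023 (log2 fold change 2.70 ± 0.69 SE, adjusted p = 0.030), OsCESA9 had 4.84, 22.1 and 15.9 CPM in 2024, against 0.580, 0.383, 2.97 and 3.23 CPM in 2023 (log2 fold change 2.99 ± 0.80 SE, adjusted p = 0.034) and OsCESA7 had 2.60, 7.01 and 7.48 CPM in 2024, against 0, 0.383, 2.12 and 0.570 CPM in 2023 (log2 fold change 2.88 ± 0.84 SE, adjusted p = 0.038). Library 1 of 2024 and libraries 1 and 2 of 2023 were lowest in their years for OsCESA4 and OsCESA9. None of the 3 was called without library 2 or 3 of 2024 or library 2 of 2023, and 1 was without library 1 or 4 of 2023. Each call was lost in 4 or 5 of the 7 fits that left out a library, with adjusted p up to 0.12, and 0 of 3 were called without libraries 1 and 2 of 2023 together. Of 9 tested genes of the expansin list 3 rose, a share near the 31.9% called over all genes. They were EXPA10 at 1.42 ± 0.24, EXPL1 at 0.76 ± 0.19 and EXPL3 at 0.87 ± 0.28. With plain totals 1 rose, without libraries 1 and 2 of 2023 3 rose and 3 fell, and the call on EXPL3 was lost in 5 of the 7 fits. Of 7 cyclins CYCD5;3 rose, with 40.5, 55.7 and 46.0 CPM in 2024, against 13.2, 19.2, 21.2 and 19.3 CPM in 2023 (log2 fold change 1.38 ± 0.16 SE, adjusted p = 7.3e-05), and CYCA1;3 fell (log2 fold change -0.80 ± 0.18). Both counts lay under the shares over all genes, and with plain totals 3 cyclins fell. A list of 32 tested genes found by aquaporin names also holds similarly named genes such as PIP5K1. It has SIP symbols too, such as SIP13, that were not checked to be aquaporins. Besides OsLsi6, given above, PIP2;2 rose by 0.93 ± 0.18, TIP2;2 by 0.55 ± 0.11 and PIP1A by 0.57 ± 0.16. The list had 5 rises and 3 falls, both under the shares over all genes, against 1 and 11 with plain totals. Rises and falls were 4 and 0 without library 2 of 2024, and 4 and 1 without library 3 of 2024 or library 1 of 2023. PIP1A was not called without library 1 of 2024 or library 4 of 2023 (adjusted p up to 0.080). Among 7 class III peroxidases, 18 tubulins and 34 histones, 1, 2 and 3 rose and 1 fell in each, all at or under the background shares of 15.9% higher and 16% lower. With plain totals 1, 9 and 10 fell, and without libraries 1 and 2 of 2023 8 histones rose and 0 fell. When 1 library was left out the called counts ranged from 0 to 13 for histones, the 13 without library 2 of 2023 and the 0 without library 3 of 2024, with 1 called without library 2 of 2024 and 2 without library 1, 3 or 4 of 2023. No peroxidase was called without library 2 or 3 of 2024 or library 2, 3 or 4 of 2023, and 0 tubulins were called without library 2 of 2024 and 1 without library 3 of 2024 or library 4 of 2023. PRX22 stood at 0.96 ± 0.34, PRX16 at -0.79 ± 0.26, TUB6 at 1.58 ± 0.45, Os11g0549900 (alpha-tubulin) at 1.034 ± 0.25 and Os05g0156600 (gamma-tubulin) at -0.44 ± 0.14. The histones Os01g0152700 (H2B), Os05g0461400 (H2A) and Os03g0799000 (H1) stood at 1.103 ± 0.32, 0.37 ± 0.13 and 0.36 ± 0.13, and Os01g0153100 (H2B) at -0.52 ± 0.14; the H2A and H1 genes turned to -0.10 and -0.11 with plain totals. All 9 of these genes lost their calls in 2 to 6 of the 7 fits that left out a library. Of 7 genes for chlorophyll breakdown, OsSGR, which removes magnesium from chlorophyll, rose with 24.2, 15.4 and 17.0 CPM in 2024, against 12.8, 7.09, 7.72 and 9.40 CPM in 2023 (log2 fold change 1.02 ± 0.22 SE, adjusted p = 0.0039), and OsRCCR1, further down the pathway, fell (log2 fold change -1.39 ± 0.29). Both counts lay under the shares over all genes. With plain totals 0 of the 7 rose, so the call on OsSGR was lost, and 5 fell. Without library 1 of 2024 3 fell. The senescence factor OsNAP (-1.21 ± 0.55) was not called. Among markers of other tissues, OsMADS1 (0.84 ± 0.36) and OsLsi1 (0.37 ± 0.18, or -0.10 with plain totals) were not called, though 2 markers of other tissues rose without library 2 of 2023.

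Among genes with an informative name, a mean of at least 10 CPM in the higher year and no overlap, the 12 largest rises and 12 largest falls included several enzymes without a list. Genes below that level, such as WAK60, were not ranked. RNS4, an S-like ribonuclease, had 614, 188 and 169 CPM in 2024, against 28.5, 11.7, 21.9 and 8.83 CPM in 2023 (log2 fold change 4.18 ± 0.69 SE, adjusted p = 0.0074), and library 1 of 2024 was more than 3 times either of the others of its year. LEA9, a late embryogenesis abundant protein, was both large and even, at 940.1, 1058 and 957 CPM in 2024, against 108, 151, 122 and 120.2 CPM in 2023 (log2 fold change 2.98 ± 0.15 SE, adjusted p = 4.6e-07). Os08g0187900, with a ubiquitin-conjugating domain, had 64.7, 88.1 and 81.8 CPM in 2024, against 8.26, 11.7, 8.15 and 7.98 CPM in 2023 (log2 fold change 3.12 ± 0.16 SE, adjusted p = 4.6e-07), and the methyltransferase-domain gene Os07g0179300 had 87.9, 89.3 and 82.04 CPM in 2024, against 16.7, 7.67, 5.69 and 8.26 CPM in 2023 (log2 fold change 3.15 ± 0.32 SE, adjusted p = 0.00034). FAD8, a plastid omega-3 fatty acid desaturase, had 16.3, 30.4 and 35.0 CPM in 2024, against 2.102, 3.35, 5.52 and 5.70 CPM in 2023 (log2 fold change 2.72 ± 0.37 SE, adjusted p = 0.0012). The hydrolase-fold gene Os09g0461500, the carboxylesterase Os01g0642000 and the subtilisin-like protease SUB57 rose by 2.94 ± 0.22, 2.77 ± 0.24 and 2.70 ± 0.32.

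Among the 12 largest falls, DR8 had the highest read level. It encodes an enzyme of thiamine synthesis and had 234, 227 and 319.6 CPM in 2024, against 1812, 1767, 1428 and 1555 CPM in 2023 (log2 fold change -2.66 ± 0.18 SE, adjusted p = 1.3e-06). MRLP16 had 0.846, 0.593 and 0.629 CPM in 2024, against 6.96, 11.7, 15.8 and 9.02 CPM in 2023 (log2 fold change -3.93 ± 0.34 SE, adjusted p = 8.4e-06), and the aldose epimerase gene Os03g0748300 had 3.44, 2.96 and 2.24 CPM in 2024, against 13.9, 28.8, 28.9 and 25.6 CPM in 2023 (log2 fold change -3.06 ± 0.28 SE, adjusted p = 3.6e-05). APX7, described as similar to a thylakoid-bound ascorbate peroxidase, which detoxifies hydrogen peroxide, had 5.802, 5.14 and 5.38 CPM in 2024, against 42.3, 30.2, 32.2 and 31.5 CPM in 2023 (log2 fold change -2.64 ± 0.16 SE, adjusted p = 8.1e-07). Falls also included the tRNase Z gene TRZ2 (-2.64 ± 0.29) and CDE4, a pentatricopeptide repeat protein of the chloroplast, with 13.96, 6.32 and 8.32 CPM in 2024, against 56.9, 45.5, 39.98 and 50.5 CPM in 2023 (log2 fold change -2.31 ± 0.24 SE, adjusted p = 0.00011). The plasma membrane calcium pump ACA3, HIPP21, the mitochondrial glycoprotein gene Os01g0143800 and the kinase gene Os09g0339000 fell (log2 fold changes -2.36 ± 0.26, -2.38 ± 0.23, -2.47 ± 0.31 and -2.31 ± 0.22). Of these 24 genes, 22 stayed called in each fit that left out 1 library, OsCESA4 and OsCESA9 being the exceptions. The 24 were chosen from the same libraries as called and without overlap, which favours keeping the call.

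**Figure D4:**
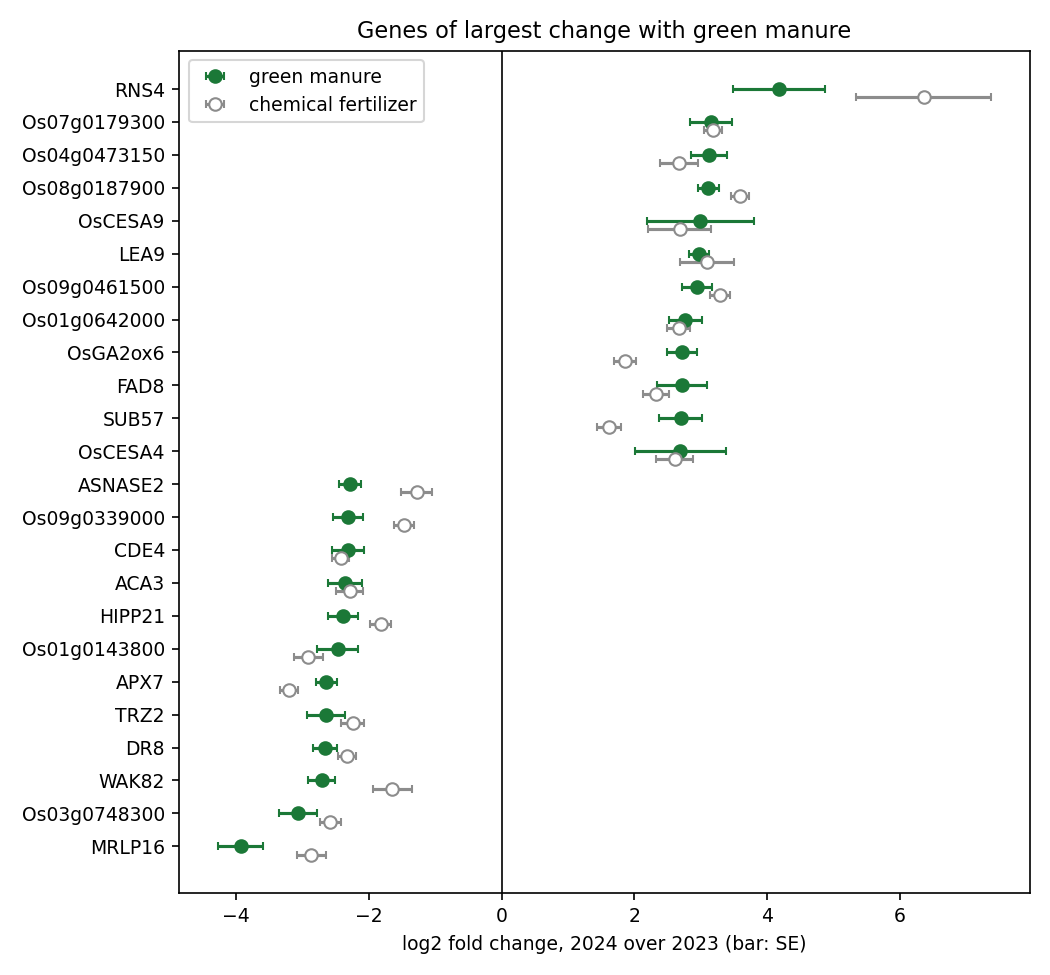
Log2 fold change, 2024 over 2023, of the 12 largest rises and 12 largest falls by the naming rule, with SE (filled green, green manure; open grey, chemical fertilizer). RNS4 leads the rises at 4.18 with green manure and MRLP16 the falls at -3.93, and all 24 have the same sign in both regimes.

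Leaves from chemically fertilized paddies differed between the same 2 years as well; the labels give no vetch rate for them. There 8887 of 18793 tested genes (47.3%) were called, 4444 higher and 4443 lower in 2024. Of 18403 genes tested in both regimes, 5005 were called in the same direction in both, which is 84.3% of the green manure calls and 57.2% of the chemical fertilizer calls. The log2 fold changes had a Pearson correlation of 0.859 over these genes, which are not independent replicates and share season, leaf stage and sequencing run. Of 1899 green manure calls of at least 1 on the log2 scale, 1886 had the same sign with chemical fertilizer and 1686 were called there too. As examples, OsLHY changed by 2.05 ± 0.14 with green manure and 1.92 ± 0.09 with chemical fertilizer, OsRCA by 1.20 ± 0.21 and 1.38 ± 0.12, OsNiR by -1.98 ± 0.16 and -2.03 ± 0.11, and DR8 by -2.66 ± 0.18 and -2.32 ± 0.13. Only 5 genes were called in opposite directions, named here after their values were seen: IGL, ALDH18B2, SWEET1B, Os04g0465500 and LRK7. None of the 5 passed the test of the difference, with adjusted p from 0.25 to 0.46, and the green manure calls on ALDH18B2 and SWEET1B were lost in 2 and 4 of the 7 fits that left out a library.

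The lists are set side by side here against different backgrounds, 15.9% higher and 16% lower over all genes with green manure and 23.6% in each direction with chemical fertilizer, and their differences between regimes were not tested. Of 140 cytosolic ribosomal protein genes, 37 fell with green manure and 37 with chemical fertilizer. Of wall-associated kinases 23 of 46 fell with green manure and 28 of 49 with chemical fertilizer, and of NB-ARC genes 31 of 111 and 45 of 108. The gibberellin list had 4 rises and 1 fall with green manure, and 10 and 1 with chemical fertilizer. The salicylate list had 0 and 3 with green manure, and 3 and 2 with chemical fertilizer. The nitrogen list had 3 rises and 6 falls of 16 with green manure (median log2 fold change -0.33), and 4 and 6 of 15 with chemical fertilizer (median 0.18).

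Several nitrogen and stress genes had unequal values in the 2 regimes, though none of the following, chosen after their values were seen, passed the interaction test. ASNASE2 changed by -2.28 ± 0.17 with green manure and -1.28 ± 0.24 with chemical fertilizer (interaction adjusted p = 0.53). ALN changed by -1.88 ± 0.20 with green manure and -0.79 ± 0.13 with chemical fertilizer (interaction adjusted p = 0.37). PRODH changed by -0.76 ± 0.12 with green manure and 0.38 ± 0.24 with chemical fertilizer, where it was not called (interaction adjusted p = 0.37). OsWRKY45 changed by -1.37 ± 0.16 with green manure and -0.58 ± 0.10 with chemical fertilizer (interaction adjusted p = 0.37).

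The difference between the regimes was itself tested as an interaction in 1 fit of all 14 libraries. It was called for 2 of 19805 genes (0.0101%) with edgeR, against 17 with DESeq2, and 1252 genes had an unadjusted p under 0.05 in edgeR. On the common scale of the 14 libraries, SWEET2B, a sugar transporter, had 106, 111 and 126 CPM with green manure in 2024 and 66.5, 58.0, 55.2 and 61.1 CPM in 2023. With chemical fertilizer it had 171, 231 and 176 CPM in 2024 and 47.0, 52.5, 46.1 and 53.5 CPM in 2023. Green manure minus chemical fertilizer, the year effects differed by -1.028 ± 0.16 on the log2 scale (adjusted p = 0.025), so its rise was smaller with green manure. PPR6, Os05g0574800, had 13.0, 9.02 and 12.8 CPM with green manure in 2024 and 16.6, 16.4, 14.7 and 14.1 CPM in 2023, against 10.9, 6.87 and 9.68 CPM with chemical fertilizer in 2024 and 33.8, 31.4, 32.5 and 32.5 CPM in 2023. Its year effects differed by 1.43 ± 0.21 (adjusted p = 0.021); it fell with chemical fertilizer and was not called with green manure (-0.41 ± 0.16). Both calls were lost in some of the fits that left out a library, where 0 to 13 genes were called.

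The next 4 genes did not pass. NRT2.4, a high-affinity nitrate transporter, had 30.1, 21.2 and 28.8 CPM with green manure in 2024 and 62.5, 59.6, 64.0 and 67.5 CPM in 2023. With chemical fertilizer it had 83.5, 93.6 and 66.4 CPM in 2024 and 86.1, 97.9, 94.0 and 67.6 CPM in 2023. The leaves were separate by year with green manure and overlapped with chemical fertilizer, and the difference of the year effects was -1.15 ± 0.20 (adjusted p = 0.075). The same difference was -1.51 ± 0.28 for NAC22 (adjusted p = 0.12), 1.11 ± 0.23 for the proline synthesis gene ALDH18B2 (adjusted p = 0.25) and -1.48 ± 0.31 for WRKY69 (adjusted p = 0.27). A p that misses the threshold does not show that the year effect was equal in the 2 regimes.

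**Figure D5:**
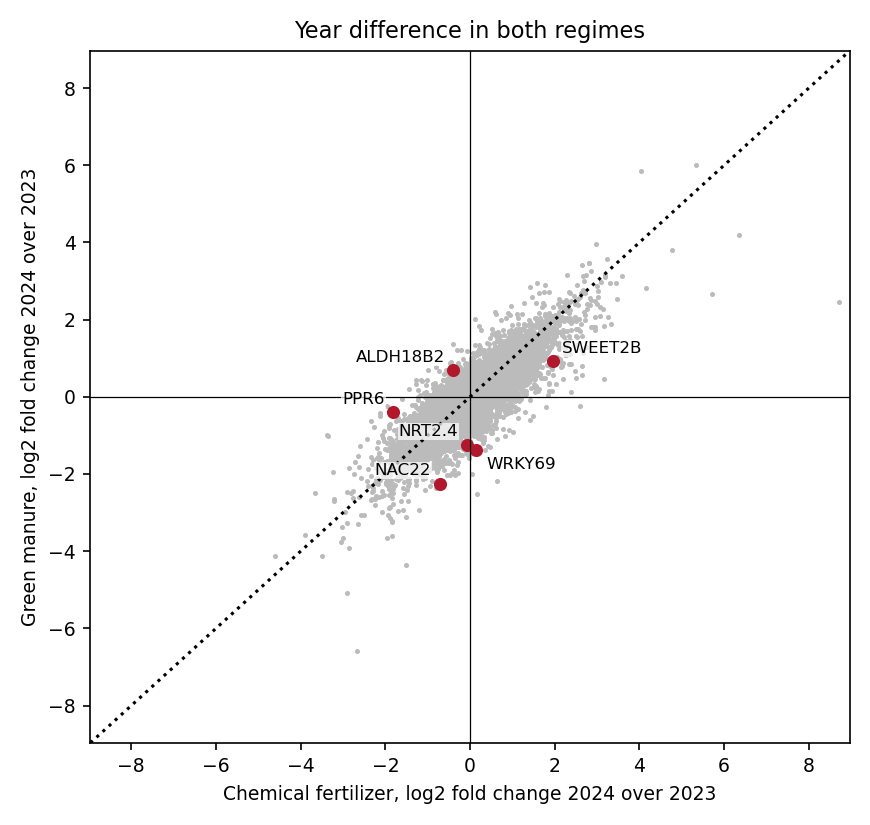
Log2 fold change, 2024 over 2023, with green manure (vertical) and with chemical fertilizer (horizontal) for the genes tested in both, 1 grey point per gene; the dotted line marks equal change. Red points are the 6 named genes with the smallest interaction p, of which SWEET2B and PPR6 passed the adjusted test.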

How the data were processed

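PolyA RNA of single leaves was made into directional libraries, per the labels' protocols. The deposited values are raw whole-number counts of unique exon reads per RAP locus, made by the authors on build IRGSP 1.0, per the submitters' processing notes. Aligner, counter and strand setting: not given in the sources used here, so antisense or overlapping genes may share reads. Both years (37727 genes each) were joined by gene ID. For 2024, 2 further columns were not used.

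Genes passing filterByExpr (at least 10 reads, 15 in total) were TMM-scaled and tested by quasi-likelihood in edgeR 4.0.16 (limma 3.58.1, R 4.3.3) on the 7 green manure libraries, without covariates. Chemical fertilizer was tested likewise, and the difference of year effects as an interaction over 14 libraries. SE is the log2 fold change over the square root of F. Scripts were tested on simulated data. Alternatives included DESeq2 1.42.0, its size factors, plain totals, other filters, thinning, the replicate block and each library left out; leaving out 2 libraries of 2023 together was added after seeing the data.

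The rule named the 12 largest rises and falls among called genes of at least 1 on the log2 scale, informatively named or described, averaging 10 CPM or more in the higher year, without overlap. It added each list's 4 smallest p among called members (all of them for the nitrogen, phosphate, gibberellin, flowering and clock lists), or the 2 nearest, and the 6 smallest interaction p. Other members given were chosen after their values were seen, and 1 gene that the rule names is not reported here. Of 39 lists 18 were set by locus and 21 by searching descriptions or symbols, trimmed by description. Members and lists were chosen with earlier results of these data known.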

Additional observations from a re-analysis of the deposited data

Results flagged for a closer look

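Within the 4 leaves of 2023, 6 of 163 named genes had 1 library far from the others by Dixon's test, and chance alone flags about 1 in 20. Library 2 of 2023 was high for Os08g0187900 (11.7 CPM, others 7.98 to 8.27), Os01g0617900 (67.7 CPM, others 53.8 to 55.6) and FSD1.1 (59.6 CPM, others 41.8 to 43.1), and low for TIFY10B (75.3 CPM, others 103.1 to 107.8). Library 1 of 2023 was high for APX7 (42.3 CPM, others 30.2 to 32.2), and library 4 of 2023 for Os09g0339000 (18.8 CPM, others 14.1 to 14.4). The year effect differed between green manure and chemical fertilizer, by the interaction test, for SWEET2B (green manure minus chemical fertilizer -1.03 on the log2 scale) and PPR6 (1.43).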

How the results depend on the processing

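The green manure count of 6038 became 10166 with plain totals and 2001 with a log2 change of at least 1, and ranged from 3854 to 6317 when 1 library was left out. The chemical fertilizer count of 8887 became 2399 with a log2 change of at least 1 and ranged from 7489 to 8651 without 1 library. The interaction count of 2 became 17 with DESeq2, 0 with plain totals and 4 with no filter, and ranged from 0 to 13 without 1 library. Other settings kept these counts within 1.5 times, including DESeq2 (5885 with green manure) and 5973 without libraries 1 and 2 of 2023 together. Of 158 called named genes, 121 stayed called in each fit that left out 1 library. With plain totals 11 named genes turned: GID1 -0.054, OsPRR73 -0.047, OsMADS56 -0.15, PHYB -0.076, OsAOC -0.087, OsCOPT1 -0.28, OsLsi1 -0.10, Os05g0461400 -0.10, Os03g0799000 -0.11, SULTR4;1 -0.045 and SPL15 -0.13; no other setting reversed a named gene. Same-numbered libraries of the 2 years had deviations correlated at 0.333, 0.0403 and 0.213. Libraries 1 and 3 of 2024 correlated best with their own number and library 2 of 2024 did not. The labels do not say whether the numbers pair the leaves. Deviations from means of 3 and 4 libraries cannot settle it. With the replicate block 6359 genes were called with green manure, 8699 with chemical fertilizer and 2 for the interaction. Depth limits genes of few reads: with counts thinned to the smallest library 5536 genes were called.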
